A study of Mus musculus with 23 samples.

Results

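Mindy2, Hacd2, Ugcg, Naa20, Septin7 and Prdx2 are 6 genes of the mouse hypothalamus, of 18704 measured, chosen by their log2 values in vehicle-injected mice, where their transcripts were lower at 4 days than at 1 day. The vehicle arrays of 4 days and 1 day thus picked the genes, and their values there are given as a description, with no test. The same genes were then examined in celastrol-injected mice, whose values the rule does not use, although the choice was made with earlier results of these data known.

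All animals were male db/db mice, which lack a working leptin receptor and become obese and diabetic. They were 8 weeks old and had eaten chow for 2 weeks. Celastrol, a triterpenoid from the thunder god vine known to reduce feeding in diet-induced obesity, was injected intraperitoneally in DMSO, and tissue was taken at 6 h (3 arrays, 250 µg/kg), 1 day (4 arrays) or 4 days (4 arrays). The labels do not clearly state a dose for the later times. The vehicle mice received DMSO alone (25 µl per day), with 4 arrays at each time. Each of the 23 arrays measured total RNA of 1 hypothalamus sample as log2 expression, and replicates are titled biological, with no word on whether each is 1 animal. Receptor loss and DMSO are common to every group. The db/db mutation affects the whole body, and no wild-type group was analysed here. Neuropeptides and transcription factors of the hypothalamus, 16 of 16 measured, had a mean log2 level between 10.74 and 10.96 on every array, while pituitary hormone genes, 8 of 9 measured, spread from 7.122 to 9.592 between arrays. In tissue RNA, fewer cells of a type and less RNA per cell cannot be told apart.

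The 6 genes belong to different pathways. Hacd2 encodes a dehydratase of the endoplasmic reticulum that acts in the elongation cycle of very long chain fatty acids, and Ugcg encodes the glucosylceramide synthase that starts the glycosphingolipids, among them the gangliosides of neuronal membranes. Naa20 is the catalytic subunit of the NatB complex, which acetylates the amino terminus of many proteins, and Mindy2 is a deubiquitinase that trims ubiquitin chains. Septin7 is a GTP-binding protein of the septin filaments, which in neurons sit at the base of dendritic spines. Prdx2 is a cytosolic peroxiredoxin that removes hydrogen peroxide and is abundant in neurons and red blood cells.

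The DNA just before an annotated start is shown for Mindy2, Hacd2 and Ugcg, the members of smallest p in celastrol mice. The Hacd2 values come from a probe set numbered among those of chromosome 15, while the sequence shown lies on chromosome 16. Whether that probe set reads the Hacd2 locus was not tested. The sequences are the last 100 bases before an annotated start, from RefSeq on build GRCm38.p6. For Mindy2, with 2 starts, the first listed was taken, and its stretch lies within the gene's annotated span, which ends at 70657856. The Ugcg stretch runs past the annotated beginning of the gene at 59189507. They lie at chr9:70657175-70657274 on the minus strand for Mindy2, at chr16:35022321-35022420 on the plus strand for Hacd2 and at chr4:59189450-59189549 on the plus strand for Ugcg. Capitals mark GC boxes, the letters GGGCGG on either strand, which the factor Sp1 is known to bind.
Mindy2: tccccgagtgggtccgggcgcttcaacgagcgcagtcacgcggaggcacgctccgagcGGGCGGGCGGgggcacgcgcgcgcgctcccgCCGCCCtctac
Hacd2: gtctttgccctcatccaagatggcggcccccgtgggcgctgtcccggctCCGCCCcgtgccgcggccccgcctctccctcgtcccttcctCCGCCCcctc
Ugcg: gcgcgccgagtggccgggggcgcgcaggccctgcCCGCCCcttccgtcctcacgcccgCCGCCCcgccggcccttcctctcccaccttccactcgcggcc

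All 6 genes had an annotated promoter, Mindy2 and Septin7 with 2 starts. A gene counted if any of its windows held the letters, while the shares given are of single windows. In windows of 300 bases, 250 before the start and 50 after it, a GC box stood in the promoters of 4 of 6 members (Hacd2, Mindy2, Prdx2 and Ugcg), against 35.7% of all 32851 windows. The ETS letters CCGGAAG stood in 3 of 6 (Hacd2, Mindy2 and Naa20), against 8.86% of windows, and the E-box CACGTG in 1 of 6 (Septin7), against 7.15%. The CCAAT box (ATTGG, 37.4% of windows), the palindromic NRF1 motif (0.971%), the cyclic AMP element TGACGTCA (1.79%) and the TATA letters TATAAA (13.6%) stood in 0 of 6. Each motif was read on both strands, and a match only describes the letters. Whether the probe sets used for Hacd2, Naa20 and Prdx2 read the loci of these promoters was not tested.

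In celastrol mice all 6 genes stood lower at 4 days than at 1 day, with differences of -0.23 to -0.11 on the log2 scale, but 0 of 6 passed at an adjusted p of 0.05 over all genes. Of all genes, 42.2% had a mean difference below 0. That comparison called 0 of 18704 genes (limma, 0%), with 2913, or 15.6%, at an unadjusted p under 0.05. At an unadjusted p under 0.05 all 6 were lower, where 4.96% of all genes were. For 4 of them, Mindy2, Hacd2, Ugcg and Naa20, all 4 arrays of 4 days lay below all 4 of 1 day, where 2.95% of all genes did. Both counts rest on 1 probe set per gene: in the second probe sets of Mindy2, Hacd2, Naa20 and Prdx2 the difference was also below 0, but 0 of 4 had an unadjusted p under 0.05 (limma, 0.0829, 0.591, 0.0639 and 0.342) and 0 of 4 were without overlap. The probe sets used for Hacd2, Naa20 and Prdx2 are numbered among those of other chromosomes. The median difference of the 6 was -0.19, beside 0.02 over all genes. With a robust variance trend in limma, Mindy2, Hacd2 and Ugcg passed (adjusted p = 0.0318, 0.0251 and 0.0364) among 139 genes, and with all 23 arrays in 1 limma model Hacd2 passed (adjusted p = 0.0389) among 66. With the mean of choroid plexus markers as a covariate, 0 of 6 passed (limma, adjusted p between 0.433 and 0.844). With the replicate numbers as a block, 0 of 6 passed as well (limma, adjusted p between 0.154 and 0.295). The celastrol fit had 11 arrays, and its 95% intervals reached a median of 0.132 to either side.

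**Figure D1:**
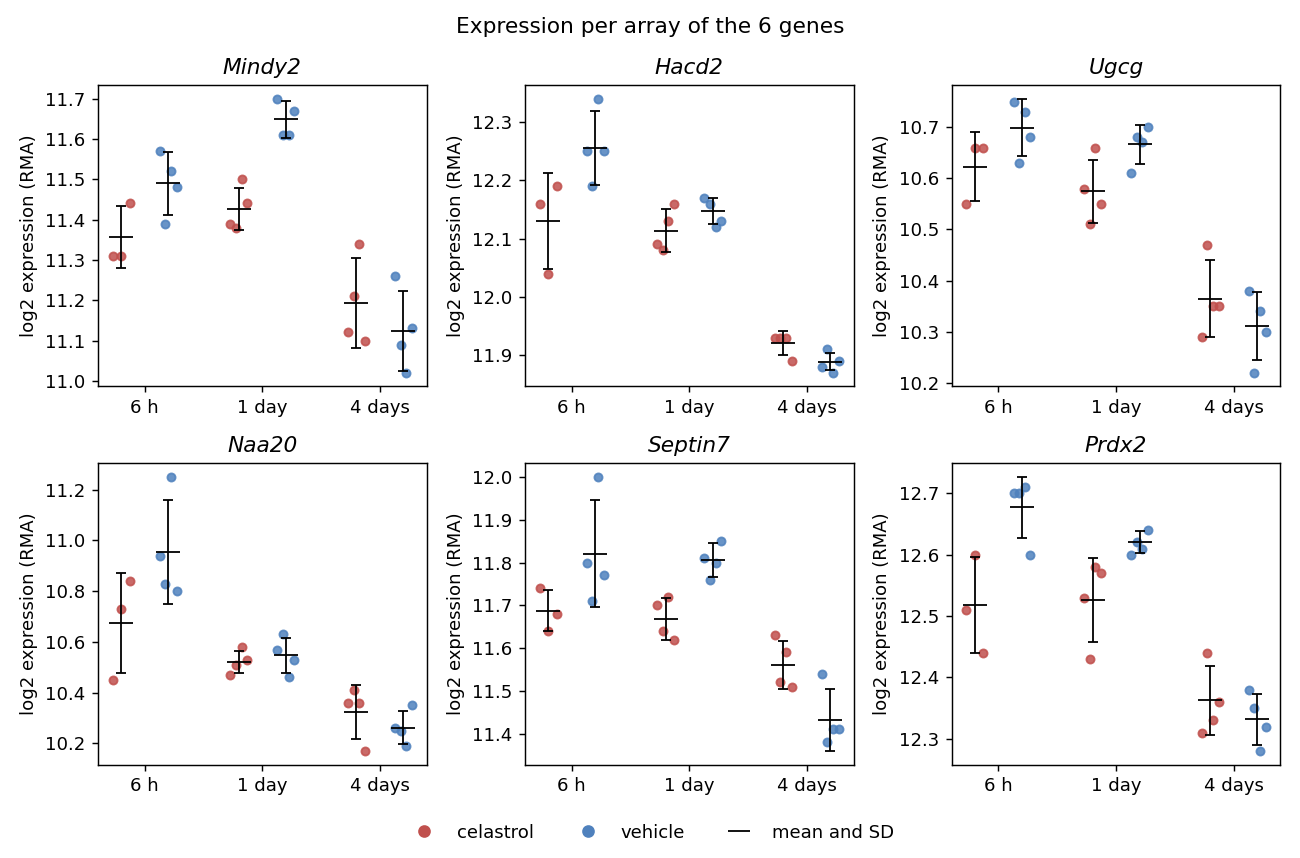
Log2 expression (vertical axis) on each of the 23 arrays at 6 h, 1 day and 4 days, for celastrol (red, left) and vehicle (blue, right); black bars give mean and SD. In both treatments the arrays of 4 days hold the lowest means of all 6 genes.

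The lipid enzymes come first. Hacd2 read 12.16, 12.04 and 12.19 at 6 h, 12.09, 12.08, 12.13 and 12.16 at 1 day and 11.93, 11.93, 11.93 and 11.89 at 4 days in celastrol mice. In vehicle mice it read 12.25, 12.19, 12.34 and 12.25 at 6 h, 12.17, 12.16, 12.12 and 12.13 at 1 day and 11.88, 11.91, 11.87 and 11.89 at 4 days. The 4-day arrays were the lowest in both treatments and varied little, and no array of another time reached them. In celastrol mice the mean was 11.92 ± 0.0200 at 4 days and 12.11 ± 0.0369 at 1 day (SD, n = 4 each), 1.14-fold lower, differing by -0.19 ± 0.0446 SE on the log2 scale (95% interval -0.29 to -0.10, limma, adjusted p = 0.104). A second Hacd2 probe set, not used here for the gene's level, differed by -0.03.

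Ugcg read 10.55, 10.66 and 10.66 at 6 h, 10.58, 10.51, 10.66 and 10.55 at 1 day and 10.29, 10.47, 10.35 and 10.35 at 4 days with celastrol. With vehicle it read 10.75, 10.63, 10.73 and 10.68 at 6 h, 10.61, 10.68, 10.67 and 10.7 at 1 day and 10.38, 10.22, 10.34 and 10.3 at 4 days. The 6-h and 1-day values overlapped in both treatments, and the 4-day values lay apart below them. In celastrol mice Ugcg averaged 10.36 ± 0.0756 at 4 days and 10.57 ± 0.0614 at 1 day (SD, n = 4 each), differing by -0.21 ± 0.0523 SE on the log2 scale (95% interval -0.32 to -0.10, limma, adjusted p = 0.114).

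The genes of protein modification differed in their earlier time course. Naa20 read 10.45, 10.73 and 10.84 at 6 h, 10.47, 10.51, 10.58 and 10.53 at 1 day and 10.36, 10.41, 10.36 and 10.17 at 4 days with celastrol. In vehicle mice it read 10.94, 10.83, 11.25 and 10.8 at 6 h, 10.57, 10.63, 10.46 and 10.53 at 1 day and 10.26, 10.25, 10.19 and 10.35 at 4 days. Naa20 was the member whose vehicle values were already lower at 1 day than at 6 h by the largest amount, -0.41 on the log2 scale, with all 4 arrays of 1 day below all of 6 h. In celastrol mice the mean was 10.32 ± 0.107 at 4 days and 10.52 ± 0.0422 at 1 day (SD, n = 4 each), differing by -0.20 ± 0.0769 SE on the log2 scale (95% interval -0.36 to -0.03, limma, adjusted p = 0.247).

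Mindy2 read 11.31, 11.31 and 11.44 at 6 h, 11.39, 11.38, 11.5 and 11.44 at 1 day and 11.12, 11.21, 11.34 and 11.1 at 4 days in celastrol mice. With vehicle it read 11.57, 11.39, 11.52 and 11.48 at 6 h, 11.7, 11.61, 11.61 and 11.67 at 1 day and 11.26, 11.09, 11.02 and 11.13 at 4 days. Its highest vehicle arrays were those of 1 day, all above those of 6 h. Among the members Mindy2 had the largest 4-day difference from 1 day in both treatments. With celastrol it averaged 11.19 ± 0.111 at 4 days and 11.43 ± 0.0530 at 1 day (SD, n = 4 each), 1.17-fold lower, differing by -0.23 ± 0.0593 SE on the log2 scale (95% interval -0.36 to -0.10, limma, adjusted p = 0.115).

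Septin7 read 11.74, 11.64 and 11.68 at 6 h, 11.7, 11.64, 11.72 and 11.62 at 1 day and 11.63, 11.52, 11.59 and 11.51 at 4 days with celastrol. In vehicle mice it read 11.8, 11.71, 12 and 11.77 at 6 h, 11.81, 11.76, 11.8 and 11.85 at 1 day and 11.54, 11.38, 11.41 and 11.41 at 4 days. The vehicle arrays of 4 days lay apart below the others, while with celastrol the highest 4-day array exceeded the lowest 1-day array. The celastrol means were 11.56 ± 0.0558 at 4 days and 11.67 ± 0.0490 at 1 day (SD, n = 4 each), differing by -0.11 ± 0.0456 SE on the log2 scale (95% interval -0.21 to -0.01, limma, adjusted p = 0.281).

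Prdx2 read 12.51, 12.6 and 12.44 at 6 h, 12.53, 12.43, 12.58 and 12.57 at 1 day and 12.31, 12.44, 12.33 and 12.36 at 4 days in celastrol mice. In vehicle mice it read 12.7, 12.7, 12.71 and 12.6 at 6 h, 12.6, 12.62, 12.61 and 12.64 at 1 day and 12.38, 12.35, 12.28 and 12.32 at 4 days. With celastrol 1 array of 4 days lay just above the lowest of 1 day, and with vehicle the groups did not overlap. The celastrol means were 12.36 ± 0.0560 at 4 days and 12.53 ± 0.0685 at 1 day (SD, n = 4 each), differing by -0.16 ± 0.0516 SE on the log2 scale (95% interval -0.28 to -0.05, limma, adjusted p = 0.177). The second Prdx2 probe set differed by -0.06 (95% interval -0.19 to 0.07, limma, adjusted p = 0.671). Red cells could be followed by 4 of 11 listed markers only. Their mean log2 level lay between 7.781 and 7.85 at 4 days and between 7.817 and 7.875 at 1 day with celastrol, so the ranges overlapped. The globin genes were not analysed here. Whether red cells bear on the Prdx2 values was not tested.

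Set beside each other, the differences of 4 days from 1 day were smaller in size with celastrol than with vehicle for all 6 genes. Mindy2 differed by -0.23 with celastrol and by -0.53 with vehicle, and Septin7 by -0.11 with celastrol and by -0.37 with vehicle. Ugcg differed by -0.21 with celastrol and -0.36 with vehicle, and Prdx2 by -0.16 with celastrol and -0.29 with vehicle. Naa20 differed by -0.20 with celastrol and -0.28 with vehicle, and Hacd2 by -0.19 with celastrol and -0.26 with vehicle. The celastrol value was 29.1% of the vehicle value for Septin7 and 74.6% for Hacd2, the extremes of the 6. These gaps were not tested, since the vehicle values chose the genes. A choice by the vehicle difference by itself favours smaller differences in other mice, so nothing is read from the gaps. In the order of the vehicle differences from the lowest of 18704 genes, the members stood between rank 11 (Mindy2) and rank 204 (Hacd2), and in that of the celastrol differences between rank 206 (Mindy2) and rank 1705 (Septin7). In vehicle mice 39.3% of all genes had a mean difference below 0, 3.22% were called lower and 8.55% higher (limma), 8.65% were lower at an unadjusted p under 0.05 (29.1% in either direction), and in 7.63% the 4-day arrays all lay below. Nothing is read from the members' count of 6 of 6 there, since that contrast chose them.

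**Figure D2:**
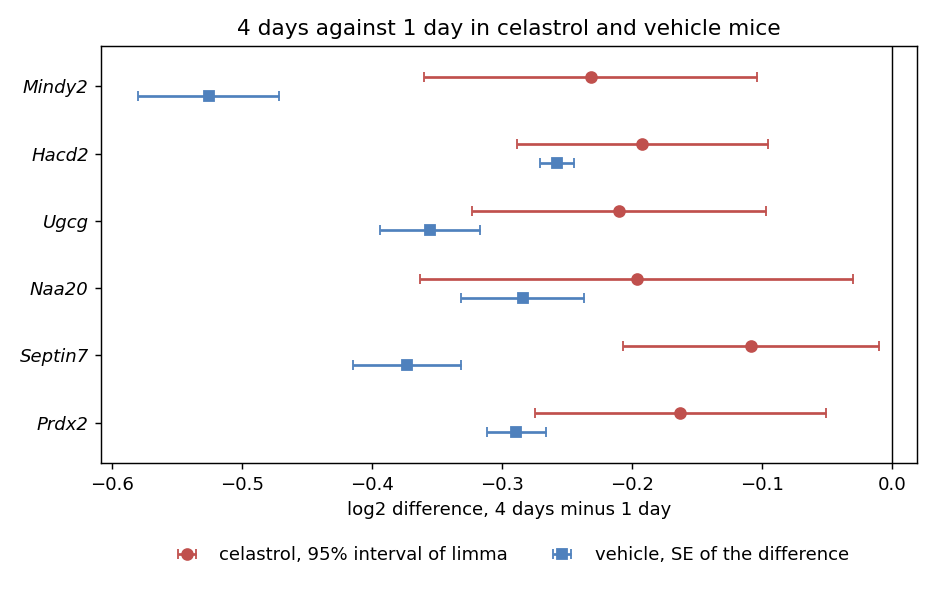
Log2 difference of 4 days minus 1 day (horizontal axis) per gene, for celastrol (red, with the 95% interval of limma) above vehicle (blue, with the SE of the difference, values that chose the genes). The celastrol points lie between -0.23 and -0.11, each nearer to 0 than the vehicle point of its gene, which the choice of the genes by itself favours.

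**Figure D3:**
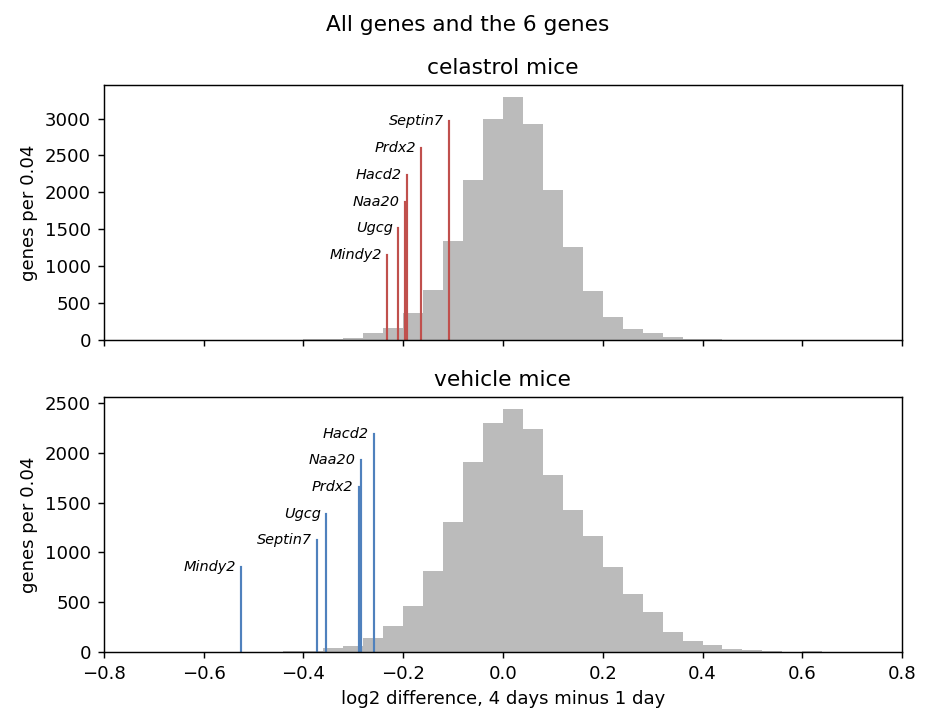
Number of genes per bin of 0.04 (vertical axis) by log2 difference of 4 days minus 1 day (horizontal axis), with the 6 genes as lines, in celastrol mice (top) and vehicle mice (bottom). The lines are of unequal height for legibility only; with celastrol they stand in the lower flank of all genes, whose median is 0.02.

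Against 6 h, all 6 genes again stood lower at 4 days with celastrol, with differences of -0.35 to -0.13, where 44.1% of all genes were lower. None of the 6 passed (limma, 0 of 18704 genes called, 0%, and 2757, or 14.7%, at an unadjusted p under 0.05). All 6 had an unadjusted p under 0.05 and a lower value, where 5.50% of all genes did. In 5 of 6, all but Mindy2, every 4-day array lay below every 6-h array, where 3.53% of all genes did. Naa20 had the largest of these differences, -0.35 ± 0.0831 SE (limma, adjusted p = 0.166), followed by Ugcg with -0.26 ± 0.0564 SE (limma, adjusted p = 0.159). With the robust variance trend in limma Hacd2, Ugcg and Naa20 passed (adjusted p = 0.0232, 0.0315 and 0.0466) among 42 genes. This comparison shares its 4-day arrays with the one against 1 day. In vehicle mice, given without a test, the members differed between 4 days and 6 h by -0.69 (Naa20) to -0.35 (Prdx2), with 6 of 6 lower (37.9% of all genes) and all 6 without overlap (4.93%).

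Between 1 day and 6 h the celastrol values of the members differed by -0.15 (Naa20) to 0.07 (Mindy2), with 4 of 6 lower (49.1% of all genes) and 0 of 6 passing (limma, adjusted p between 0.558 and 0.975). That comparison called 3 of 18704 genes, 0.0160%, and 10.4% had an unadjusted p under 0.05 (6.57% lower). In 0 of 6 did all 1-day arrays lie below all 6-h arrays, where 6.39% of all genes did. The interval for Hacd2 ran from -0.12 to 0.09, that for Prdx2 from -0.11 to 0.13 and that for Septin7 from -0.13 to 0.09. In vehicle mice, given without a test, 1 day differed from 6 h by 0.16 for Mindy2, -0.11 for Hacd2 and -0.41 for Naa20, each with no overlap between arrays. All 1-day arrays lay below in 2 of 6 (3.61% of all genes), and 5 of 6 had a lower mean (54.1%). Ugcg, Septin7 and Prdx2 overlapped there, with differences of -0.03, -0.02 and -0.06.

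At 6 h, a time the rule does not use, all 6 genes stood lower with celastrol than with vehicle, with differences of -0.28 to -0.08. Of all genes, 47.2% were lower there. The members are highly expressed, and of the 3031 genes with a mean level at least that of Ugcg, the lowest member, 1850 were lower. None of the 6 passed (limma, 0 of 18704 genes called, 0%, and 2041, or 10.9%, at an unadjusted p under 0.05). Naa20 averaged 10.67 ± 0.198 with celastrol (SD, n = 3) and 10.95 ± 0.205 with vehicle (SD, n = 4), differing by -0.28 ± 0.118 SE on the log2 scale (limma, adjusted p = 0.44). Prdx2 averaged 12.52 ± 0.0786 with celastrol (SD, n = 3) and 12.68 ± 0.0494 with vehicle (SD, n = 4), differing by -0.16 ± 0.0640 SE on the log2 scale (limma, adjusted p = 0.426). Only these 2 had an unadjusted p under 0.05, where 3.19% of all genes had one and were lower. Prdx2 alone had all celastrol arrays below all vehicle arrays, where 4.29% of genes did. The arrays' SD over all genes also differed at 6 h, lying between 1.87 and 1.917 with celastrol and between 1.922 and 1.943 with vehicle. With that SD as a covariate, chosen after the data were seen, the difference was 0.0046 for Naa20, 0.02 for Mindy2 and 0.02 for Ugcg, while it was -0.21 for Prdx2, -0.12 for Septin7 and -0.05 for Hacd2. As the SD did not overlap between the treatments, this fit cannot tell the 2 apart, and nothing is read from these values. Without the covariate, all 6 stayed below 0 when any 1 array was left out. Naa20 was then -0.17 without celastrol replicate 1 and -0.18 without vehicle replicate 3, Ugcg -0.04 without celastrol replicate 1, Hacd2 -0.08 without celastrol replicate 2 and Septin7 -0.07 without vehicle replicate 3.

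The celastrol and vehicle arrays of the later times are compared without a test, since the vehicle arrays chose the genes. At 1 day all 6 genes were lower with celastrol than with vehicle, with differences of -0.22 (Mindy2) to -0.03 (Naa20 and Hacd2). Of all genes, 45.9% were lower there, and of the 3031 genes with a mean level at least that of Ugcg, 1981 were. Mindy2, Septin7 and Prdx2 did not overlap between the treatments there, where 4.56% of genes lay wholly below. At 4 days all 6 were higher with celastrol, by 0.03 (Prdx2 and Hacd2) to 0.13 (Septin7), and all 6 overlapped. At 4 days 50.3% of all genes were lower with celastrol and 1.63% lay wholly below. The choice of genes higher with vehicle at 1 day than at 4 days by itself favours both directions. Nothing is read from the members' counts at these times.

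The probe sets behind the values matter for 4 of the 6 genes, which had a second probe set that names only the gene. For Naa20 the other probe set gave nearly the same values as the one used (r = 0.99 over 23 arrays, a description), with a difference of 4 days from 1 day of -0.18 with celastrol and -0.28 with vehicle. For Mindy2 it gave -0.18 with celastrol and -0.18 with vehicle, and for Prdx2 -0.06 with celastrol and -0.14 with vehicle. For Hacd2 it gave -0.03 with celastrol (95% interval -0.13 to 0.08, limma, adjusted p = 0.831) and 0.05 with vehicle. In celastrol mice the other Hacd2 probe set averaged 10.07 at 4 days and 10.09 at 1 day, so the lower Hacd2 values at 4 days rest on 1 of its 2 probe sets.

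**Figure D4:**
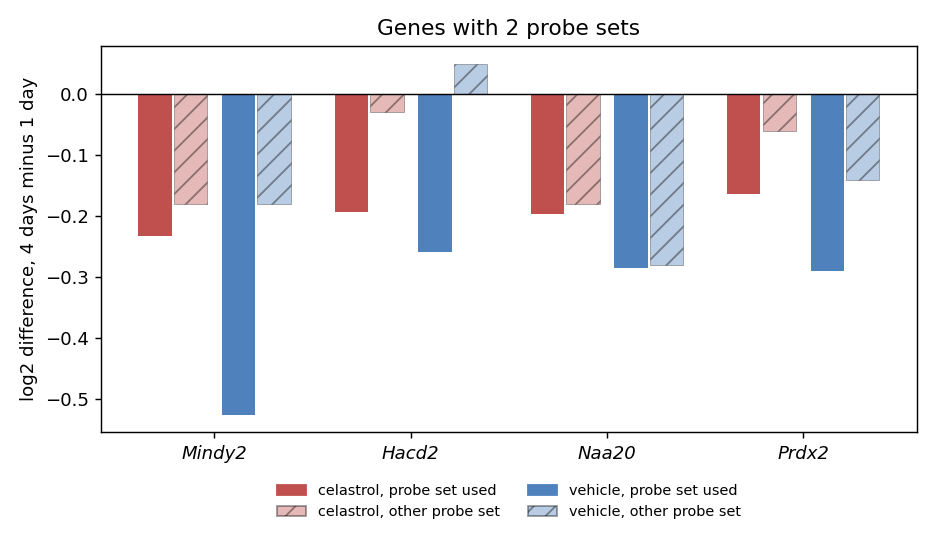
Log2 difference of 4 days minus 1 day (vertical axis) for the 4 genes with 2 probe sets, in celastrol (red) and vehicle mice (blue); full bars are the probe set used, hatched bars the other. The Naa20 bars are alike, and the other Hacd2 bars lie near 0, at -0.03 with celastrol and 0.05 with vehicle.

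The numbers of the array's probe sets follow the chromosomes, which gives a hint of where a probe set was designed. For Mindy2, Ugcg and Septin7, all 12 of the nearest probe sets by number, 6 on each side, name genes on the chromosome of the gene itself. For the probe sets used for Hacd2, Naa20 and Prdx2, 0 of 12 do: the neighbours name genes on chromosome 15 for Hacd2 (a gene on 16), on 8 for Naa20 (a gene on 2) and on 1 for Prdx2 (a gene on 8). Over all 20209 probe sets with a known chromosome, 2.84% have 0 such neighbours. The other probe sets of these 3 genes had 11 or 12 neighbours on the gene's chromosome. The sources used here do not name the locus the probes match, and whether these 3 probe sets read the gene or a copy elsewhere was not tested.

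The other genes of the members' pathways were followed in 6 lists. In the lists chosen for each, leaving out the member itself, 0 genes passed in celastrol mice at 4 days against 1 day (limma, 0% of all genes called). Of 20 other deubiquitinases, 8 were lower and 12 higher, with a median of 0.012 beside 0.017 over all genes. The nearest relative of Mindy2, Mindy1, differed by 0.10 (limma, adjusted p = 0.398), and Otud6b, an OTU-family deubiquitinase, stood higher by 0.26 ± 0.0676 SE (limma, adjusted p = 0.115), opposite to Mindy2. Otud7a, of the same family, differed by 0.13 (limma, adjusted p = 0.213). In Otud6b and Otud7a the arrays of 4 days and 1 day did not overlap, with 4 days above. The share of all genes lying wholly above was not counted, so nothing is read from this. The same holds for the lack of overlap in Elovl7, Sptlc3 and Hypk below.

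Of 15 other genes of fatty acid elongation, 9 were lower, with a median of -0.024. Hacd1, the closest relative of Hacd2, differed by -0.16 ± 0.0519 SE (limma, adjusted p = 0.181) with celastrol and by -0.27 with vehicle. The elongase gene Elovl7 differed by 0.20 (limma, adjusted p = 0.215), with no overlap between the groups. Of 37 other sphingolipid genes, 13 were lower and 24 higher, with a median of 0.04. St3gal5, which makes the ganglioside GM3 downstream of Ugcg, averaged 10.17 at 4 days and 10.34 at 1 day, with no overlap between the groups. It differed by -0.16 ± 0.0522 SE on the log2 scale (limma, adjusted p = 0.179). Of all genes, 2.95% had every 4-day array below every 1-day array. Sptlc3, a subunit of the enzyme that opens sphingolipid synthesis, differed by 0.20 ± 0.0515 SE (limma, adjusted p = 0.12), also with no overlap, but with 4 days above.

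Prdx1 and Prdx3 stood lower at 4 days as well, without passing. Prdx1, a cytosolic relative of Prdx2, averaged 10.81 at 4 days and 11.08 at 1 day with celastrol, differing by -0.27 ± 0.0696 SE on the log2 scale (limma, adjusted p = 0.115). Prdx3, the mitochondrial peroxiredoxin, averaged 9.909 at 4 days and 10.12 at 1 day, differing by -0.21 ± 0.0537 SE on the log2 scale (limma, adjusted p = 0.115). In both genes all 4 arrays of 4 days lay below all 4 of 1 day, where 2.95% of all genes did. Prdx4, the peroxiredoxin of the endoplasmic reticulum, singled out after its values were seen, averaged 7.421 at 4 days and 7.779 at 1 day, differing by -0.36 ± 0.114 SE on the log2 scale (limma, adjusted p = 0.177). All 4 measured peroxiredoxins were thus lower in their means, where 42.2% of all genes were, and 0 passed. Prdx2 was a chosen gene and Prdx4 was picked by its values, so nothing is read from this count. Over the wider list of peroxide removal, 9 of 17 other genes were lower, with a median of -0.012.

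Of 10 other genes of N-terminal acetylation, 3 were lower and 7 higher. Naa25, the auxiliary subunit that binds Naa20 in NatB and was singled out after its values were seen, differed by -0.06 (limma, adjusted p = 0.556). Hypk, a partner of the NatA complex, differed by 0.16 and Naa60, an acetyltransferase of the Golgi, by -0.08 (limma, adjusted p = 0.213 and 0.412). The groups did not overlap in either gene, with 4 days above in Hypk and below in Naa60 (2.95% of all genes lay wholly below). Of 17 other septins and partners, 8 were lower and 9 higher, with a median of 0.013. Septin1 differed by -0.16 and Cdc42ep3, a septin-binding effector of Cdc42, by 0.19 (limma, adjusted p = 0.331 and 0.225).

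Over the 23 arrays the members correlated with each other, with r from 0.62 (Mindy2 and Naa20) to 0.92 (Ugcg and Prdx2). The arrays share the times and treatments by which the genes were chosen. After each group's mean was taken off, r ranged from -0.09 (Hacd2 and Prdx2) to 0.50 (Hacd2 and Naa20). The gene most like the mean of the 6 was Tmem41b, a scramblase of the endoplasmic reticulum (r = 0.931). Its log2 difference of 4 days from 1 day was -0.23 with celastrol and -0.33 with vehicle. Choice by r over arrays that hold both contrasts favours such differences, so they are given with no test. Atad1 (r = 0.923), which extracts mislocalised proteins from mitochondria, Gabrg1 (0.912), a subunit of the GABA-A receptor, Hnrnpk (0.905), an RNA-binding protein, and Gpbp1 (0.901) followed.

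For single members the most alike genes were Chordc1 for Mindy2 (r = 0.917), Atad1 for Hacd2 (0.914), Wdr47 for Ugcg (0.918), Strap for Naa20 (0.911), Gpbp1 for Septin7 (0.927) and Nrsn1 for Prdx2 (0.88). Chordc1, a cochaperone of Hsp90, differed by -0.37 with celastrol and by -0.49 with vehicle, given with no test. Next in rank were Pias2 and Taf2 for Mindy2 (0.912 and 0.908), Tpt1 and Cdc42 for Hacd2 (0.911 and 0.903) and Vps35 and Snx13 for Ugcg (0.906 and 0.899). Sec23b and Ddx1 followed for Naa20 (0.883 and 0.882), Hnrnpk and Tmem41b for Septin7 (0.921 each), and Tmem41b and Hacd1 for Prdx2 (0.87 and 0.864). All are correlations over the same 23 arrays, so lower values of these genes at 4 days are favoured by their choice.

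Other measures moved with the time differences. In vehicle mice the SD of an array over all genes lay between 1.886 and 1.907 at 4 days and between 1.933 and 1.962 at 1 day, with no overlap, whereas with celastrol it lay between 1.88 and 1.943 at 4 days and between 1.905 and 1.932 at 1 day. With that SD as a covariate the celastrol differences lay between -0.23 (Mindy2) and -0.11 (Septin7) as before. The vehicle difference of Naa20 was -0.07 in place of -0.28 and that of Ugcg -0.25 in place of -0.36. In vehicle mice the SD and the time go together, so these values cannot tell them apart. Among the 3031 genes whose mean level was at least that of Ugcg, the lowest of the members, the groups did not overlap and 4 days lay below in 5.44% with celastrol and in 18.2% with vehicle.

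Markers of other cells were followed in the same contrast. Of all genes, 42.2% had a mean difference below 0 with celastrol and 39.3% with vehicle. These shares stand beside all the marker counts that follow, and nothing is read from counts near them. Mural and fibroblast markers, 12 of 12 measured, were higher at 4 days in 11 of 12 in both treatments. Their mean log2 level lay between 8.896 and 9.137 at 4 days and between 8.82 and 8.987 at 1 day with celastrol, and between 8.917 and 9.497 at 4 days and between 8.784 and 9.038 at 1 day with vehicle, with overlap in both. Pituitary markers were higher in 5 of 8 with celastrol and in 8 of 8 with vehicle, with median differences of 0.101 and 0.435.

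Endothelial markers, 9 of 9 measured, were higher in 7 of 9 with celastrol and in 5 of 9 with vehicle. With celastrol their mean log2 level lay between 9.228 and 9.285 at 4 days and between 9.14 and 9.215 at 1 day, without overlap, and with vehicle between 9.239 and 9.383 at 4 days and between 9.207 and 9.408 at 1 day. Blood leukocyte markers, 9 of 10 measured, were higher in 4 of 9 with celastrol and in 9 of 9 with vehicle. They lay between 6.618 and 6.78 at 4 days and between 6.614 and 6.796 at 1 day with celastrol. With vehicle they lay between 6.68 and 6.85 at 4 days and between 6.561 and 6.663 at 1 day, without overlap. These markers were low, with gene means from 5.36 (Ccr2) to 7.98 (Lyz2), below every array median (8.595 or more). The array SD also differed between those vehicle groups, and whether leukocytes changed was not tested. Oligodendrocyte markers, 8 of 9 measured, were lower in 5 of 8 with celastrol and in 8 of 8 with vehicle, with median differences of -0.027 and -0.036.

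Choroid plexus markers, 9 of 10 measured, were higher in 7 of 9 with celastrol and in 6 of 9 with vehicle. Their mean log2 level lay between 7.763 and 7.924 at 4 days and between 7.66 and 7.777 at 1 day with celastrol. Neuron markers, 10 of 10 measured, were lower in 7 of 10 in both treatments, and with celastrol lay between 12.08 and 12.14 at 4 days and between 12.1 and 12.14 at 1 day. Thalamus markers, 10 of 10 measured, were lower in 8 of 10 with celastrol and in 7 of 10 with vehicle. Astrocyte markers, 8 of 8 measured, were lower in 2 of 8 with celastrol and in 6 of 8 with vehicle, and microglia markers, 7 of 8 measured, were lower in 4 of 7 in both. In celastrol mice 0 genes of these lists passed (limma). Log2 array values have no true zero, so no marker can be called absent. The part of these cell types in the results was not tested. With the choroid plexus mean as a covariate the celastrol differences of 4 days from 1 day lay between -0.18 (Hacd2) and -0.05 (Septin7, -0.11 without it). Their adjusted p lay between 0.433 and 0.844 (limma). As that mean was itself higher at 4 days, with little overlap, this fit cannot well tell it apart from time.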

How the data were processed

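Total RNA of the hypothalamus was hybridised to 1 Affymetrix array per sample. The deposited values are on the log2 scale, summarised by probe set. The submitters' processing notes name RMA for this step, while its software, version and filters stand in none of the sources used here. No normalization was added. Of 23492 probe sets, 20228 name 1 gene in the platform annotation (1399 name several, 1865 none). Where a gene had several, the one of highest mean was kept, giving 18704 genes. Over all probe sets, array medians lay between 8.57 and 8.64, and over the genes between 8.595 and 8.675; all pairs of arrays correlated at 0.990 or more, none identical. The number of arrays limits the precision.

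Groups came from the labels. Limma 3.58.1 (R 4.3.3) was fitted to the 11 celastrol arrays, and to the 7 arrays of 6 h, with Benjamini-Hochberg adjustment over all genes. For the members, no test was made in comparisons holding vehicle arrays of 1 or 4 days; the shares of all genes called there come from 1 limma fit of all 23 arrays. The members and the 18 gene lists were chosen with earlier results of these data known. Named genes were the members, the 2 of smallest p in each pathway list, the genes most correlated with each member (3) and with their mean (5), and each member's nearest paralog; none was taken for Ugcg, Naa20 and Septin7. Alternatives were other fits, filters, scalings, covariates and left-out arrays. P-values measure the spread between these samples.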

Additional observations from a re-analysis of the deposited data

Results flagged for a closer look

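Among the 30 sets of 4 arrays formed by the members and the groups of that size, 2 held an array that stood apart by Dixon's criterion at 95%, which chance alone gives in about 1 of 20. Hacd2 in celastrol replicate 4 of 4 days was 11.89, where the other 3 arrays read 11.93, and its gap made up 0.834 of the group's range. Prdx2 in vehicle replicate 4 of 6 h was 12.6, where the other arrays read 12.7 to 12.71, with a gap of 0.868 of the range.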

How the results depend on the processing

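Of 738 values recomputed under other settings, 679 kept their direction and side of the threshold, or moved by less than the spread between replicates. This count does not measure robustness, since several settings change only the variance or the genes tested and return the same difference. A tested value that did not pass counted as kept when its sign held. Hacd2 at -0.03 in its other probe set, in place of -0.19, was such a value. In the celastrol comparison of 4 days with 1 day all 6 members stayed lower under each setting, and the number of genes called, 0 in limma on the celastrol arrays, was 66 with all 23 arrays in 1 fit, 139 with the variance trend made robust, 39 when the lowest tercile by level was dropped, 10 after further quantile normalisation, 10 with array weights and 24 with the array SD as a covariate, a setting chosen after seeing the data. The members called were 1, 3, 0, 0, 0 and 0 in these settings. Leaving out 1 array at a time gave 0 to 2 genes and 0 members. For 4 days against 6 h the count was 14 with all arrays, 42 with the robust trend (3 members), 5 without the lowest tercile and 2 with arrays centred on their medians. For 1 day against 6 h the 3 genes called became 6 with all arrays, 1 without the lowest tercile, 1 after quantile normalisation and 0 with centred arrays, the choroid plexus covariate, the array SD or the replicate block. Leaving out 1 array gave 0 to 7, with 7 without celastrol replicate 4 of 4 days.

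At 6 h the replicate block called 7 genes, where the fit without it called 0, and 0 members. Leaving out 1 array at 6 h gave 0 genes and -0.3609 to -0.1695 for Naa20. Whether the replicate numbers pair the samples is not settled by the values. Deviations of same-numbered celastrol arrays correlated at -0.12 to 0.10 between 4 days and 1 day. There 1 of 4 arrays correlated best with its own number. Between 4 days and 6 h the range was -0.22 to -0.12 (0 of 3 best with their own number). It was 0.07 to 0.20 between 1 day and 6 h (3 of 3), and -0.01 to 0.19 between the treatments at 6 h (2 of 3). Directions turned at 6 h with the array SD as a covariate, to 0.01899 for Mindy2, 0.02208 for Ugcg and 0.004604 for Naa20. That SD did not overlap between the treatments at 6 h, so the covariate cannot be told apart from treatment. In vehicle mice the direction turned for Hacd2 in its other probe set (0.04571). Between 1 day and 6 h, leaving out 1 array gave -0.06332 to 0.01476 for Hacd2, -0.04139 to 0.006548 for Septin7 and -0.02951 to 0.04895 for Prdx2. The cause was not tested. In vehicle mice Hacd2 moved to -0.2239 after quantile normalisation, -0.2822 with centred arrays and -0.2124 with the array SD. With that covariate Ugcg moved to -0.2503 and Naa20 to -0.06621, and in the other probe sets Mindy2 moved to -0.1776 and Prdx2 to -0.1383.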
